A study of Mus musculus with 12 samples.

Results

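Of the 23282 gene symbols counted in C22 mouse club cells, 42 belong to the machinery that copies DNA in S phase or supplies it, and their mRNA levels were followed under TGF-β1 and Pdcd5 knockdown. The 42 genes were chosen by name for what their products do, with earlier results of these data known. All 42 were among the counted symbols and passed the filter on low counts with which 12425 genes were tested. They comprise 4 genes of origin licensing, 6 subunits of the MCM helicase, 5 genes of helicase activation, 8 of polymerases and primase, 5 of the sliding clamp and its loader, 3 of single-strand binding and Okazaki fragment joining, 5 of nucleotide supply, 3 of chromatin assembly and maintenance methylation, and 3 of the control of S-phase entry.

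In G1, the origin recognition complex with CDC6 and CDT1 loads the ring-shaped MCM helicase onto origins of replication, and at the start of S phase CDC45, the GINS complex and MCM10 turn it into an active helicase. DNA polymerase α with primase then lays down primers, the RFC complex loads the PCNA clamp, polymerases δ and ε extend the strands, and FEN1 and LIG1 join the Okazaki fragments. Most of these genes are transcribed at the transition from G1 to S by E2F factors, which the retinoblastoma protein holds back until cyclin E and other cyclins with their kinases release them. TGF-β is known for arresting epithelial cells in G1.

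Total RNA was taken from 4 groups of 3 libraries each. NC cells carried a negative control siRNA and NC + TGF-β1 cells also received 20 ng/ml TGF-β1 for 24 h. siPdcd5 cells carried siRNA against Pdcd5, and siPdcd5 + TGF-β1 cells had both. All 4 groups were the same cloned line, made from H-2Kb-tsA58 mice, whose temperature-sensitive SV40 large T antigen permits growth at a lowered temperature with interferon-γ. The cells were first differentiated without it and then kept without serum for 2 h before TGF-β1 was added. The labels of these libraries give 33 °C for growth and 39 °C for differentiation. The methods of the study, in their general account of cell culture, give a lower temperature for the latter. These sources disagree, so the temperature of differentiation is uncertain. Large T antigen binds the retinoblastoma protein, and neither the labels nor the files tell how much of it remained. The line is a single clone, and no source says that the 3 libraries of a group came from separate cultures, so the p-values measure only the spread between these libraries. The defining club cell markers Scgb3a2 and Cyp2f2 had no count in any library, Scgb1a1 had at most 1 count, and the epithelial marker Epcam had at most 1 count, whereas another club cell gene, Aldh1a1, had at least 2141 counts in every library. Of 6 fibroblast markers Lum had at most 1 count, and Col1a1, a collagen gene, had at least 22970. Summed, the 6 fibroblast markers were at 3749 to 3985 CPM in NC, 7419.9 to 8041 in NC + TGF-β1, 2537 to 3119 in siPdcd5 and 5588 to 5943 in siPdcd5 + TGF-β1, and the groups did not overlap. Some other marker lists moved with the groups too, the epithelial list only with TGF-β1. The 6 club cell markers, 3 of them with at most 1 count, summed to 547 to 556 CPM in NC, 231 to 245 in NC + TGF-β1, 292 to 326 in siPdcd5 and 155 to 165 in siPdcd5 + TGF-β1. The 5 epithelial markers summed to 674 to 697 CPM in NC, 1239.7 to 1677 in NC + TGF-β1, 547 to 699 in siPdcd5 and 1582 to 1645 in siPdcd5 + TGF-β1. The 3 basal cell markers summed to 10.2 to 11.98 CPM in NC, 169 to 209.7 in NC + TGF-β1, 1.92 to 4.51 in siPdcd5 and 75.2 to 88.0 in siPdcd5 + TGF-β1. The 4 ciliated cell markers summed to 239 to 269 CPM in NC and 202 to 250 in NC + TGF-β1. They summed to 261 to 317 CPM in siPdcd5 and 306 to 336 in siPdcd5 + TGF-β1. The sums of AT2, endothelial and macrophage markers overlapped between all groups. The part of these marker genes in the results below was not tested.

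The promoters of the 4 members whose level changed in a comparison, Cdt1, Rfc4, Tk1 and Rrm1, are printed here because E2F factors act on replication genes at their promoters. Each runs from 250 bases before to 50 bases after a RefSeq transcription start (GRCm38.p6), in the direction of the gene, with capitals marking a match on either strand to the E2F letters TTTCCCGC, TTTGGCGC, TTTCGCGC or TTTGCCGC or to the CCAAT box CCAAT. The Cdt1 promoter lies on the plus strand at chr8:122567765-122568064, that of Rfc4 on the minus strand at chr16:23127681-23127980, that of Tk1 on the minus strand at chr11:117825965-117826264 and that of Rrm1 on the plus strand at chr7:102441445-102441744.
Cdt1: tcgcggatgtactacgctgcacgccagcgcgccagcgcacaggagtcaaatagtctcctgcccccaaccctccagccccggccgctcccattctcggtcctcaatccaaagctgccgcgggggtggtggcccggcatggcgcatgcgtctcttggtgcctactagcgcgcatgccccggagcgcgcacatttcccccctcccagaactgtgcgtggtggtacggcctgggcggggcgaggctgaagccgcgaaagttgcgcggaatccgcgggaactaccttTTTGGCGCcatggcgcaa
Rfc4: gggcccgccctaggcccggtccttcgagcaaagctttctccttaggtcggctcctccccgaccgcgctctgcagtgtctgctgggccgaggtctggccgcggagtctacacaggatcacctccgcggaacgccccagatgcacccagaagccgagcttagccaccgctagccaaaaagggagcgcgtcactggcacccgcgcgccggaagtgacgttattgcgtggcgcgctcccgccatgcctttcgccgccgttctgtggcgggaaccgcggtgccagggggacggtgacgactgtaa
Tk1: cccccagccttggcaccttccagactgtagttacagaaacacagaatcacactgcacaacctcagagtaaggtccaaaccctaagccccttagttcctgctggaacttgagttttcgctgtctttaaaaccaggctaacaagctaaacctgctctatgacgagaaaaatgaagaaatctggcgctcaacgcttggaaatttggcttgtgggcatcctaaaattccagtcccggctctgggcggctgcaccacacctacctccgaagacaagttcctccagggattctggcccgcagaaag
Rrm1: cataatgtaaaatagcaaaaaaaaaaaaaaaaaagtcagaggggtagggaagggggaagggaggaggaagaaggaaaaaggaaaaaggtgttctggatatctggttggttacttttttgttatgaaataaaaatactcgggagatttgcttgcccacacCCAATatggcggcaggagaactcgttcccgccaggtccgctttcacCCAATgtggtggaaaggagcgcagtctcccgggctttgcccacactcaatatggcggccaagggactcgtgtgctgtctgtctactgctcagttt

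Among these 4 sequences, Cdt1 held an E2F match, TTTGGCGC, starting 32 bases after the transcription start, and Rrm1 held 2 CCAAT boxes, starting 91 and 45 bases before it. The windows of Rfc4 and Tk1 held none of the letters searched. RefSeq promoters were found for 35 of the 42 members, with 1 or more windows each. Any of the 4 E2F letters stood in a promoter of 15 of these 35 genes (42.9%), namely Cdc6, Cdt1, Gins3, Lig1, Mcm3, Mcm5, Mcm6, Mcm7, Orc1, Pola1, Pold1, Pold3, Pole2, Rfc3 and Uhrf1, against 704 of 27025 genes in the whole table (2.605%). TTTCCCGC was found for 7 members, TTTGGCGC for 6, TTTCGCGC for 7 and TTTGCCGC for 0, against 1.24%, 0.585%, 0.374% and 0.507% of all genes. The CCAAT box stood in promoters of 19 of the 35 members (54.3%) and of 41.1% of all genes. Matches of different letters may overlap, and a match describes only the letters in the window. The promoters of Mcm4, Gins1, Gins2, Rfc2, Prim2, Pole and Ccne2 were not analysed here.

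The libraries held 12809857 to 17714828 counted reads, so that 3 counts, taken as the smallest level a library can show, correspond to 0.165 to 0.239 CPM, the count of a gene relative to the TMM-scaled total of its library. The lowest count of any member in any library was 17, for Pole2. Pdcd5, the target of the siRNA, was at 65.1 to 73.5 CPM in the 6 libraries of NC and NC + TGF-β1 and at 20.0 to 26.3 CPM in the 6 knockdown libraries. NC + TGF-β1 replicate 2 and siPdcd5 replicate 1 stood apart from their groups. The first principal component of the deviations from the group means took 33.9% of the variance, and these libraries scored 34.6 and 23.7 on it, against -21.5 to 5.30 for the other 10. Values without them are given beside the results that they alter most and, for the counts of genes called, in a paragraph of their own, a choice made after the data were seen.

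After TGF-β1 in NC cells, Cdt1, Rfc4 and Tk1 fell, and no other member passed the test. Their levels became 0.716, 0.695 and 0.645 times those of NC cells. In bulk RNA, fewer cells in S phase and less of these mRNAs per cell cannot be told apart. Changes were called by edgeR's quasi-likelihood test at a Benjamini-Hochberg adjusted p under 0.05, adjusted over all 12425 genes. The 3 members called are 7.14% of the 42, while 15.3% of all genes tested were called in this comparison, and 6.77% of all genes were called lower. The median log2 fold change was -0.10 over the 42 members and 0.00 over all genes (interquartile range of the members -0.23 to 0.04), with 26 members on the lower and 16 on the higher side of 0. For 41 of the 42 members the 95% interval of the log2 fold change lay within 1 of 0, the exception being Pole2, so that changes of 2-fold or more lay outside the intervals of these 41. The libraries of both groups did not overlap for 6 members that were lower and 1 that was higher after TGF-β1. Over all 12425 genes this held for 1775 that were lower and 1898 that were higher, 29.6% in either direction.

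After TGF-β1 in siPdcd5 cells, Cdt1 fell again, to 0.806 times its level, and no other member passed the same test. This is 2.38% of the members, against 16.1% of all genes called and 7.61% called lower. The median log2 fold change was -0.06 for the members and -0.03 for all genes, and 27 of the 42 members had a negative value. Libraries did not overlap for 7 members that were lower and 2 that were higher. Over all 12425 genes this held for 2255 that were lower and 2228 that were higher, 36.1% in either direction. This comparison shares no library with that in NC cells, so their values can be set beside each other. In both comparisons 22 members had negative and 11 positive values, and the correlation of the log2 fold changes was 0.58 across the 42 genes and 0.75 across all genes tested, where genes are not independent replicates.

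Without TGF-β1, Pdcd5 knockdown was followed by a lower level of Rrm1 alone among the members, at 0.772 times that of NC cells. The share of members called was again 2.38%, against 3.44% of all genes called and 2.54% called lower. The median log2 fold change was 0.16 for the members and 0.02 for all genes, and 35 of the 42 members had a positive value, none of which passed the test. Libraries of siPdcd5 and NC did not overlap for 7 members that were higher and 1 that was lower. Over all 12425 genes this held for 1318 that were higher and 1547 that were lower, 23.1% in either direction.

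With TGF-β1, knockdown changed the level of 0 members by the same test, against 1.55% of all genes. An unadjusted p under 0.05 was found for 12 of the 42 members and for 1711 of all 12425 genes. DESeq2 called 3 members higher, Chaf1b, Mcm5 and Prim1, among 459 genes called in all. Quantile normalization with limma-trend called 0 members among 161 genes. The member nearest to the threshold was Chaf1b, with a log2 fold change of 0.65 ± 0.16 (SE, n = 3 per group, edgeR adjusted p = 0.053). The median was 0.15 for the members and -0.02 for all genes, and 34 of the 42 members had a positive value. Libraries did not overlap for 11 members that were higher and 1 that was lower. Over all 12425 genes this held for 1098 that were higher and 1245 that were lower, 18.9% in either direction. These values come from the fit to all 12 libraries and are drawn for every member in the plot of fold changes by role. The knockdown comparisons share their libraries with those of TGF-β1, and their values are given side by side only.

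**Figure D1:**
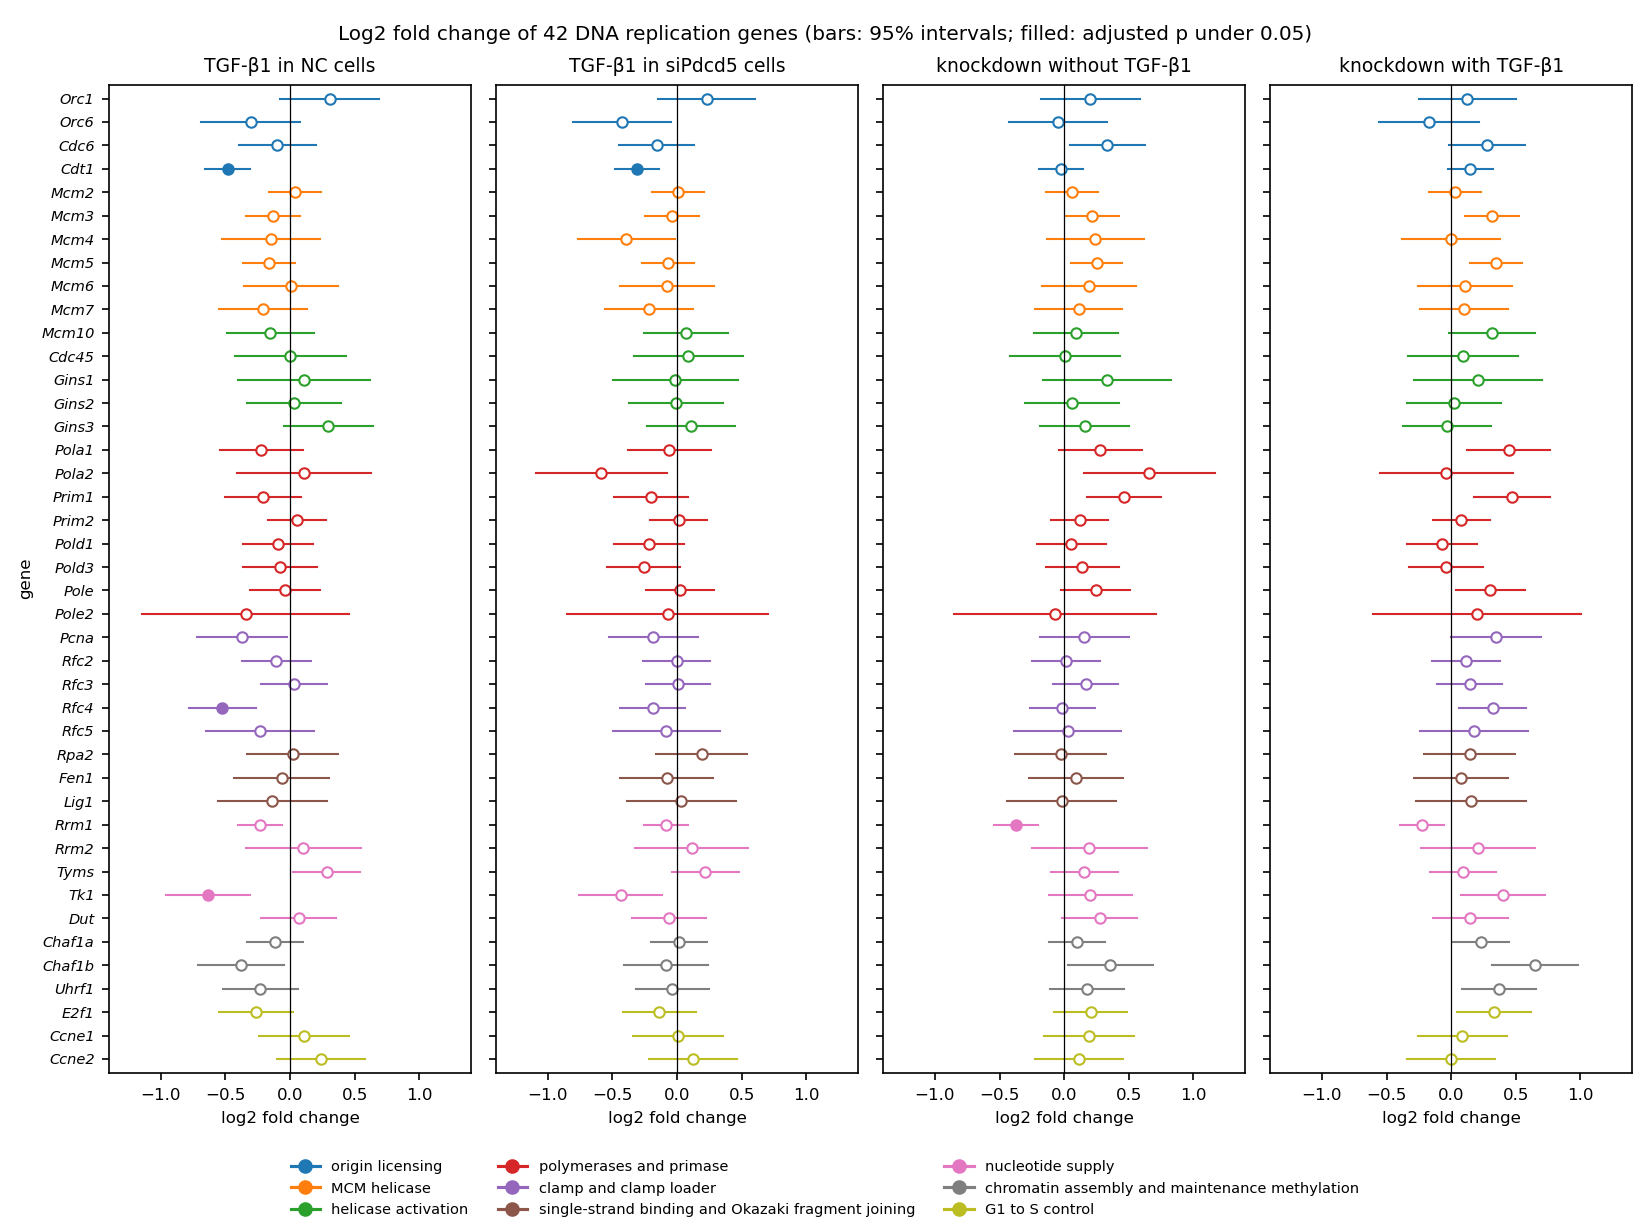
The log2 fold change (x axis) of each of the 42 genes (y axis, coloured by role) in the 4 comparisons. Bars are 95% intervals derived from the edgeR fit (n = 3 libraries per group), and filled symbols mark an adjusted p under 0.05. Filled symbols are Cdt1, Rfc4 and Tk1 after TGF-β1 in NC cells, Cdt1 in siPdcd5 cells and Rrm1 after knockdown without TGF-β1. More symbols lie left than right of 0 in the TGF-β1 panels (26 and 27 of 42). More lie right of 0 in the knockdown panels (35 and 34 of 42). Of all genes tested, 50.8%, 46.6%, 53.8% and 46.4% had values above 0 in the 4 comparisons.

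Summed over the 42 genes, the level was 3063 ± 86.9 CPM in NC cells, 2793 ± 213 with TGF-β1, 3213 ± 174 in siPdcd5 cells and 3044 ± 34.4 in siPdcd5 cells with TGF-β1 (mean ± SD, n = 3 libraries each). The 3 NC libraries ranged from 2999 to 3162 CPM and the NC + TGF-β1 libraries from 2594 to 3018, so that these groups overlapped. siPdcd5 libraries ranged from 3017 to 3347 CPM and siPdcd5 + TGF-β1 libraries from 3014 to 3082. This overlap rests on siPdcd5 replicate 1, one of the libraries that stood apart, at 3017 CPM, and the other siPdcd5 libraries, at 3347 and 3275 CPM, lay above all 3 siPdcd5 + TGF-β1 libraries.

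**Figure D2:**
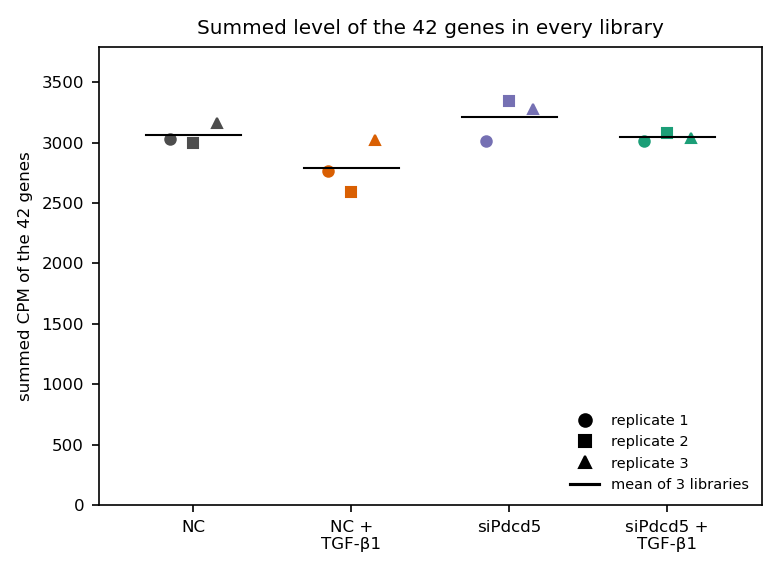
The summed CPM of the 42 genes (y axis, from 0) in each library of the 4 groups (x axis); symbols mark the replicate and lines the mean of 3 libraries. All 12 libraries lie between 2594 and 3347 CPM, and the lowest are the NC + TGF-β1 libraries replicate 2 and replicate 1. The sum weighs abundant genes most.

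Among the origin licensing genes, Cdt1 fell after TGF-β1 in both kinds of cell and the other 3 did not pass the test. Cdt1, which brings the MCM ring to the origin and is destroyed once S phase has begun, was at 134, 133 and 125 CPM in NC cells, 101, 91.9 and 88.1 with TGF-β1, 131, 127 and 128 in siPdcd5 cells and 107, 105 and 99.3 in siPdcd5 cells with TGF-β1. All 6 TGF-β1 libraries lay below all 6 libraries without it. The log2 fold change was -0.48 ± 0.08 in NC cells (SE, edgeR adjusted p = 0.00071) and -0.31 ± 0.08 in siPdcd5 cells (adjusted p = 0.016), and without the 2 libraries that stood apart it was -0.48 and -0.30. Leaving out siPdcd5 + TGF-β1 replicate 3 alone raised the adjusted p in siPdcd5 cells to 0.082. Knockdown gave -0.02 ± 0.08 without and 0.15 ± 0.08 with TGF-β1, neither past the test.

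Cdc6, the loading partner of Cdt1, was at 14.8, 13.5 and 15.4 CPM in NC cells, 12.9, 15.5 and 12.4 with TGF-β1, 20.1, 16.8 and 18.3 in siPdcd5 cells and 16.0, 18.7 and 14.7 in siPdcd5 cells with TGF-β1. Its siPdcd5 libraries lay above the NC libraries, while those of NC and NC + TGF-β1 overlapped. The knockdown value without TGF-β1 was 0.34 ± 0.14 (edgeR adjusted p = 0.24). The origin recognition subunits Orc1 and Orc6 had values of opposite sign after TGF-β1, at 0.31 ± 0.18 and -0.30 ± 0.18 in NC cells and at 0.23 ± 0.17 and -0.43 ± 0.18 in siPdcd5 cells, with none past the test. Without the 2 libraries that stood apart, Orc6 was lower after TGF-β1 in NC cells, at -0.51 ± 0.15 (edgeR adjusted p = 0.014).

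**Figure D3:**
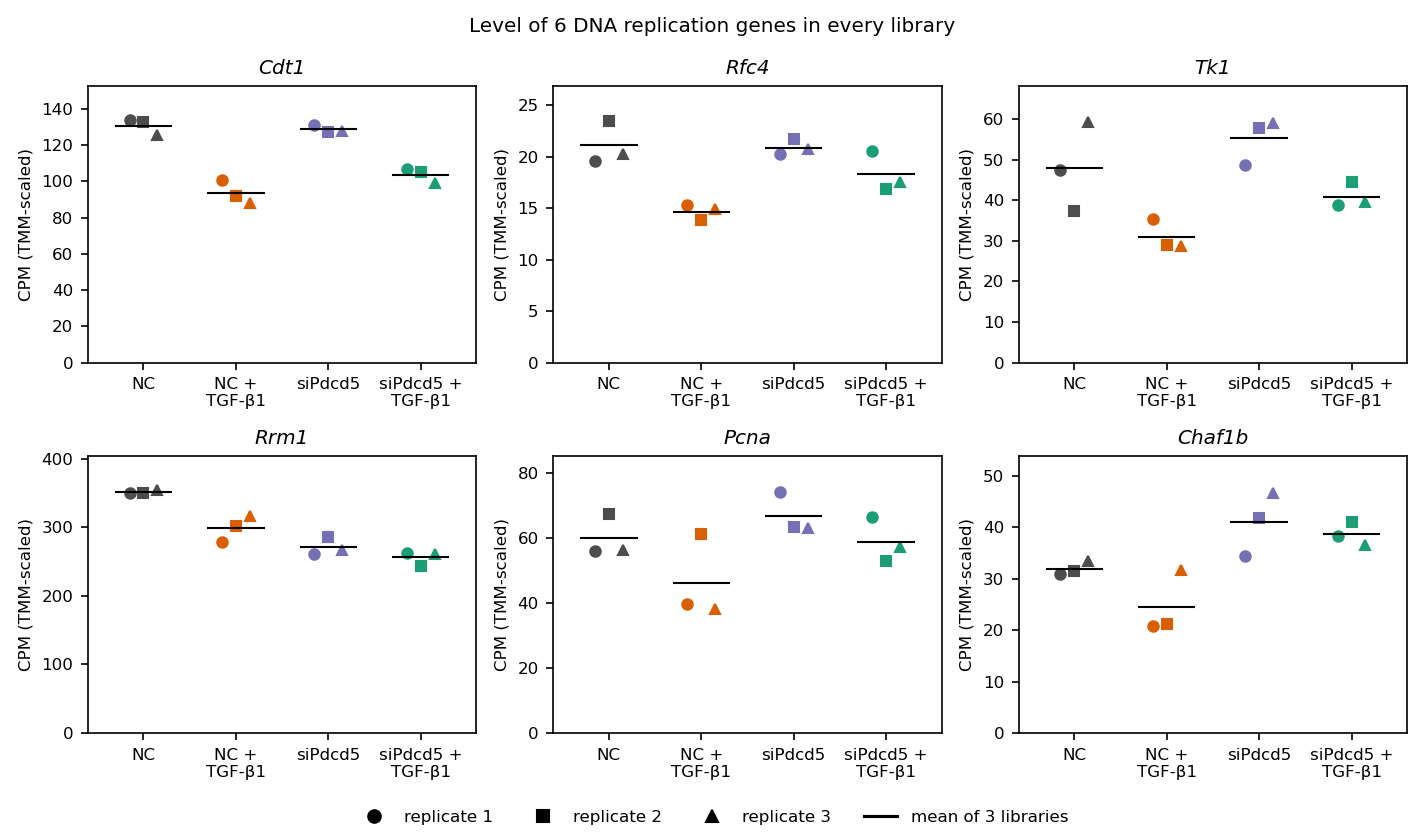
Level of 6 genes in CPM on TMM-scaled library sizes (y axes, from 0) in each library of the 4 groups (x axes); symbols mark the replicate and lines the mean of 3 libraries. Cdt1, Rfc4 and Tk1 lie lower in all 3 NC + TGF-β1 libraries than in NC, Rrm1 lies highest in NC, NC + TGF-β1 replicate 2 lies above the other libraries of its group for Pcna, and Chaf1b lies higher in siPdcd5 + TGF-β1 than in NC + TGF-β1; Pcna and Chaf1b were plotted after their values were seen.

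None of the 6 MCM subunits passed the test in any comparison. Mcm2 was at 122, 123 and 133 CPM in NC cells, 128, 144 and 117 with TGF-β1, 139, 128 and 127 in siPdcd5 cells and 139.7, 123 and 135 in siPdcd5 cells with TGF-β1. Its groups overlapped throughout, and its log2 fold changes lay between 0.01 and 0.06 with standard errors of 0.09. Mcm5 was at 51.3, 54.7 and 57.0 CPM in NC cells, 51.7, 44.9 and 48.9 with TGF-β1, 65.2, 59.6 and 69.5 in siPdcd5 cells and 59.9, 63.9 and 61.3 in siPdcd5 cells with TGF-β1. All 6 knockdown libraries of Mcm5 lay above all 6 others, with log2 fold changes of 0.25 ± 0.09 without TGF-β1 (edgeR adjusted p = 0.19) and 0.35 ± 0.09 with it (adjusted p = 0.086).

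Mcm6 was at 114, 119 and 123 CPM in NC cells, 98.3, 157 and 103 with TGF-β1, 170.5, 113 and 124 in siPdcd5 cells and 124, 126 and 135 in siPdcd5 cells with TGF-β1. The 2 highest values belong to NC + TGF-β1 replicate 2 and siPdcd5 replicate 1, the libraries that stood apart. With them, the log2 fold change after TGF-β1 in NC cells was 0.01 ± 0.17, and without them it was -0.25 ± 0.08 (edgeR adjusted p = 0.024), so that its sign turned. Mcm7, in contrast, was at its lowest in NC + TGF-β1 replicate 2, with 220.4 CPM against 311 and 384 CPM in the other NC + TGF-β1 libraries. The log2 fold changes of Mcm3, Mcm4 and Mcm7 ranged from -0.21 to -0.13 after TGF-β1 in NC cells, from -0.39 to -0.04 in siPdcd5 cells, from 0.11 to 0.24 after knockdown without TGF-β1 and up to 0.31 with it.

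Of the genes that activate the helicase, 0 of 5 passed the test in any comparison. Cdc45, which joins the MCM ring when origins fire, was at 9.73, 12.5 and 8.14 CPM in NC cells, 8.60, 13.2 and 8.63 with TGF-β1, 9.52, 11.2 and 9.72 in siPdcd5 cells and 12.3, 9.72 and 10.4 in siPdcd5 cells with TGF-β1. These groups overlapped in all 4 comparisons, and the log2 fold changes ranged from 0.00 to 0.09 with standard errors of 0.20. Mcm10 and the GINS genes Gins1, Gins2 and Gins3 had values between -0.15 and 0.33, and among them only Gins3 had libraries without overlap, being higher in NC + TGF-β1 than in NC at 0.30 ± 0.16 (edgeR adjusted p = 0.26).

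The 8 polymerase and primase genes also held no change past the test with all libraries. Prim1, the catalytic primase subunit, had log2 fold changes of 0.47 ± 0.13 after knockdown without TGF-β1 (edgeR adjusted p = 0.082) and 0.47 ± 0.14 with it (adjusted p = 0.11), its libraries not overlapping in either comparison. Pola1, the catalytic subunit of polymerase α, was at 0.28 ± 0.15 and 0.44 ± 0.15 in the same comparisons. Without the libraries that stood apart, Prim1 and Pola1 rose after knockdown without TGF-β1, at 0.52 and 0.41, and Pola1 also rose with TGF-β1, at 0.30. Pola2, an accessory subunit of that polymerase, was at 51.5 CPM in siPdcd5 replicate 1 and at 35.6 CPM in NC + TGF-β1 replicate 2, the 2 highest of its 12 values. Prim2, Pold1, Pold3, Pole and Pole2, the remaining primase subunit and subunits of polymerases δ and ε, had log2 fold changes between -0.34 and 0.30. The value of -0.34 was that of Pole2 after TGF-β1 in NC cells, which without the libraries that stood apart was -0.90 ± 0.34 (edgeR adjusted p = 0.049), and knockdown with TGF-β1 then gave 0.75 ± 0.34 (adjusted p = 0.18).

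In the clamp loader, Rfc4 fell after TGF-β1 in NC cells. Rfc4, a subunit of the RFC complex, was at 19.5, 23.5 and 20.3 CPM in NC cells, 15.3, 13.8 and 14.9 with TGF-β1, 20.2, 21.7 and 20.7 in siPdcd5 cells and 20.5, 16.9 and 17.5 in siPdcd5 cells with TGF-β1. The NC + TGF-β1 libraries were the 3 lowest of the 12. The log2 fold change was -0.52 ± 0.12 in NC cells (edgeR adjusted p = 0.0072), -0.49 without the libraries that stood apart, and -0.19 ± 0.12 in siPdcd5 cells (adjusted p = 0.32). Exons of Rfc4 (chromosome 16, 23113943 to 23127737, minus strand, GRCm38) overlap those of Eif4a2 on the other strand, and Eif4a2 was also lower after TGF-β1 in NC cells, at -0.36 (edgeR adjusted p = 0.036). Since the use of strand in counting is not stated, reads of these genes cannot be told apart. The other subunits Rfc2, Rfc3 and Rfc5 had log2 fold changes of -0.10, 0.03 and -0.23 after TGF-β1 in NC cells, with overlapping libraries.

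Pcna, the sliding clamp, was at 56.0, 67.5 and 56.4 CPM in NC cells, 39.7, 61.2 and 38.0 with TGF-β1, 74.2, 63.5 and 63.2 in siPdcd5 cells and 66.5, 52.9 and 57.1 in siPdcd5 cells with TGF-β1. NC + TGF-β1 replicate 2 was the single library of its group within the range of NC. The log2 fold change after TGF-β1 in NC cells was -0.37 ± 0.16 with all libraries (edgeR adjusted p = 0.16). It was -0.64 ± 0.11 without the libraries that stood apart (adjusted p = 6.6e-05), and then knockdown with TGF-β1 gave 0.61 ± 0.11 (adjusted p = 0.00079).

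Rpa2, a subunit of the protein that coats single-stranded DNA, Fen1, which trims the flaps of Okazaki fragments, and Lig1, which seals them, had log2 fold changes between -0.14 and 0.19 in the 4 comparisons, with overlapping libraries in each. Lig1 was at 311 CPM in NC + TGF-β1 replicate 2 and 366 CPM in siPdcd5 replicate 1, the lowest of its 12 values, which otherwise ranged from 467 to 581 CPM.

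Nucleotide supply held 2 of the genes that changed. Tk1, the thymidine kinase of the S-phase salvage pathway, was at 47.4, 37.5 and 59.3 CPM in NC cells, 35.3, 29.1 and 28.7 with TGF-β1, 48.8, 57.9 and 59.2 in siPdcd5 cells and 38.7, 44.5 and 39.5 in siPdcd5 cells with TGF-β1. Both TGF-β1 groups lay below their controls without overlap. The log2 fold change was -0.63 ± 0.15 in NC cells (edgeR adjusted p = 0.0099) and -0.44 ± 0.15 in siPdcd5 cells (adjusted p = 0.062), and without the libraries that stood apart -0.60 (adjusted p = 0.0018) and -0.52 (adjusted p = 0.0042). Without NC replicate 3 the adjusted p in NC cells was 0.061. Exons of Tk1 overlap Afmid on the other strand, whose log2 fold change was -0.01 in NC cells.

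Rrm1, the large subunit of ribonucleotide reductase, was at 349.6, 349.9 and 355 CPM in NC cells, 278, 302 and 317 with TGF-β1, 261, 286 and 267 in siPdcd5 cells and 263, 244 and 261 in siPdcd5 cells with TGF-β1. The 3 NC libraries were the highest of the 12. Knockdown without TGF-β1 gave -0.37 ± 0.08 (edgeR adjusted p = 0.019) and -0.35 without the libraries that stood apart (adjusted p = 0.0036), and knockdown with TGF-β1 gave -0.22 ± 0.08 (adjusted p = 0.21). The call without TGF-β1 was lost when any of the 3 NC libraries, siPdcd5 replicate 1 or siPdcd5 replicate 3 was left out alone, with adjusted p-values up to 0.081, while the log2 fold change stayed between -0.41 and -0.31 over these and the other alternatives. After TGF-β1 in NC cells Rrm1 was at -0.23 ± 0.08 (adjusted p = 0.066).

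Its partner Rrm2, the small subunit, was at 20.9, 18.4 and 17.96 CPM in NC cells, 17.5, 28.4 and 15.6 with TGF-β1, 26.3, 21.6 and 17.9 in siPdcd5 cells and 25.03, 19.6 and 26.2 in siPdcd5 cells with TGF-β1. The highest values of Rrm2 were again NC + TGF-β1 replicate 2 and siPdcd5 replicate 1, and no log2 fold change exceeded 0.21. Without these libraries Rrm2 was higher after knockdown with TGF-β1, at 0.52 ± 0.14 (edgeR adjusted p = 0.023). Tyms, which makes thymidylate, was at 17.4, 23.0 and 19.4 CPM in NC cells, 26.8, 24.7 and 21.4 with TGF-β1, 21.9, 22.1 and 22.7 in siPdcd5 cells and 26.1, 24.9 and 26.6 in siPdcd5 cells with TGF-β1. Unlike Tk1, Tyms had positive values after TGF-β1, at 0.28 ± 0.12 in NC cells (edgeR adjusted p = 0.15) and 0.22 ± 0.12 in siPdcd5 cells (adjusted p = 0.25), without passing the test. Dut, which removes dUTP, had values between -0.06 and 0.28.

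The chromatin genes had negative values after TGF-β1 in NC cells and positive values after knockdown, none past the test. Uhrf1, which brings DNA methyltransferase to newly copied DNA, was at 21.7, 21.4 and 25.2 CPM in NC cells, 20.1, 21.1 and 17.0 with TGF-β1, 25.02, 27.1 and 24.98 in siPdcd5 cells and 29.3, 21.2 and 24.7 in siPdcd5 cells with TGF-β1. Its NC + TGF-β1 libraries lay below those of NC and of siPdcd5 + TGF-β1, at -0.23 ± 0.13 and 0.37 ± 0.13. For Chaf1b, a subunit of chromatin assembly factor 1, NC + TGF-β1 libraries were at 20.8, 21.3 and 31.7 CPM and siPdcd5 + TGF-β1 libraries at 38.3, 41.0 and 36.6 CPM, without overlap. Chaf1a, the large subunit of that factor, was at 0.23 ± 0.10 in the same comparison (edgeR adjusted p = 0.33).

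Of the genes that govern entry into S phase, E2f1 was at 78.3, 70.4 and 79.2 CPM in NC cells, 70.1, 51.1 and 68.9 with TGF-β1, 75.1, 100.1 and 87.4 in siPdcd5 cells and 83.5, 83.9 and 71.5 in siPdcd5 cells with TGF-β1. E2f1 encodes a transcription factor of the replication genes, and its NC + TGF-β1 libraries lay below those of NC, at -0.26 ± 0.13 (edgeR adjusted p = 0.23). The cyclin E gene Ccne1 was at 34.2, 32.6 and 35.9 CPM in NC cells, 33.2, 47.9 and 29.5 with TGF-β1, 47.3, 36.1 and 33.9 in siPdcd5 cells and 39.1, 39.0 and 39.5 in siPdcd5 cells with TGF-β1. Its 2 highest values were those of the libraries that stood apart.

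The other cyclin E gene, Ccne2, was at 77.8, 81.9 and 85.1 CPM in NC cells, 100.2, 73.2 and 116 with TGF-β1, 68.9, 104 and 92.4 in siPdcd5 cells and 91.6, 94.3 and 103 in siPdcd5 cells with TGF-β1. It was at its lowest in the libraries in which Ccne1 was at its highest. Without both libraries Ccne2 was the single member that rose after TGF-β1 in NC cells, at 0.40 (edgeR adjusted p = 0.0013), against 0.24 ± 0.16 with them (adjusted p = 0.37).

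The response to TGF-β1 was compared between siPdcd5 and NC cells by the interaction of the 2 factors. By this test 0 members and 0% of all 12425 genes were called, and 0 members and 638 genes had an unadjusted p under 0.05. Without the 2 libraries that stood apart, 0 members and 1.59% of all genes were called. With all libraries DESeq2 called 15 genes and quantile normalization with limma-trend 0 genes, none of them a member. The median difference of the log2 fold changes was 0.01 over the members. The extreme values were -0.70 ± 0.34 for Pola2 and 0.34 ± 0.17 for Rfc4, and the 95% intervals of 40 of the 42 members lay within 1 of 0, the exceptions being Pola2 and Pole2. The value of Pola2 rests on the libraries that stood apart and was -0.03 ± 0.17 without them, when the largest was 1.04 ± 0.46 for Pole2 (edgeR adjusted p = 0.25). The fall of Rfc4 and Tk1 in NC cells and the lack of a call in siPdcd5 cells is therefore not a tested difference between them, since their interaction values, 0.34 ± 0.17 and 0.20 ± 0.21, did not pass.

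The members also varied between libraries of a group. In NC + TGF-β1 replicate 2 and siPdcd5 replicate 1, 18 of the 42 members lay above their group mean in both libraries, 16 below in both and 8 on opposite sides. On the log2 scale, the members highest in both were Pole2 (0.87 and 0.42), Pola2 (0.56 and 0.54), Rrm2 (0.52 and 0.28) and Mcm6 (0.43 and 0.35). Those lowest in both were Lig1 (-0.52 and -0.43), Rpa2 (-0.47 and -0.30), Rfc5 (-0.39 and -0.37) and Ccne2 (-0.37 and -0.34). Members of one complex moved apart in these libraries, with Mcm6 and Mcm4 above and Mcm7 and Mcm3 below their group means. Pola2 lay above and Pola1 below, and Gins2 above and Gins3 below. The cyclin E genes also moved apart, with Ccne1 above and Ccne2 below. The deviations in the 2 libraries had a correlation of 0.88 over the 42 members and 0.49 over all 12425 genes, which share library and depth and are not independent. Deviations within a group of 3 sum to 0, so that pairs of libraries are tied to each other, and another pair, NC + TGF-β1 replicate 3 and siPdcd5 replicate 3, had a correlation of 0.83 over the members and 0.20 over all genes. What sets these libraries apart was not tested.

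**Figure D4:**
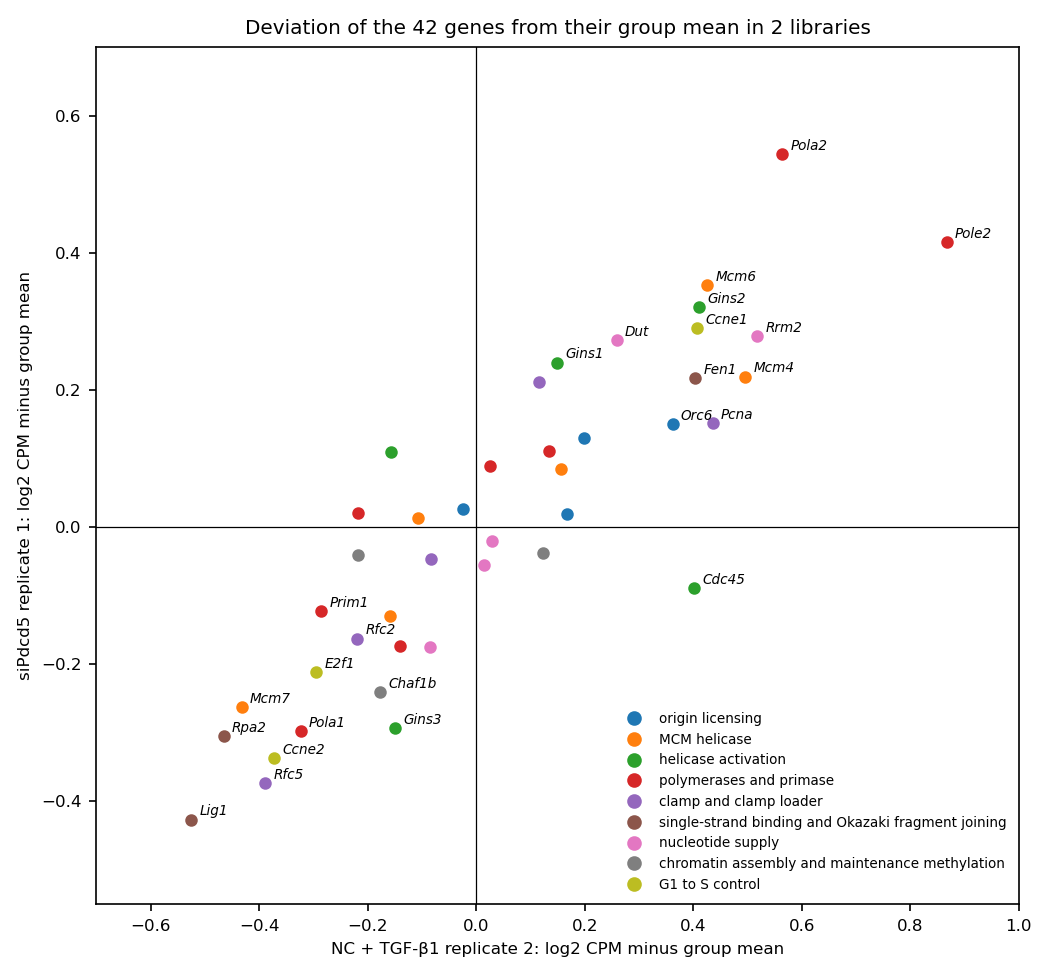
Deviation of each of the 42 genes (points, coloured by role) from its group mean on the log2 CPM scale, in NC + TGF-β1 replicate 2 (x axis) and siPdcd5 replicate 1 (y axis). The points run from Lig1 at -0.52 and -0.43 to Pola2 and Pole2 at the upper right; 18 genes lie above 0 in both libraries and 16 below in both.

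Without these 2 libraries more members and more genes overall were called. After TGF-β1 in NC cells 10 members were called, 9 lower (Cdt1, Mcm4, Mcm6, Orc6, Pcna, Pole2, Rfc4, Rrm1 and Tk1) and Ccne2 higher, which is 23.8% of the members against 29.1% of all genes. After TGF-β1 in siPdcd5 cells 4 were called, all lower (Cdt1, Mcm4, Mcm7 and Tk1), 9.52% against 24.9%. Knockdown without TGF-β1 gave 6, with Chaf1b, E2f1, Mcm3, Pola1 and Prim1 higher and Rrm1 lower, 14.3% against 9.09%. Knockdown with TGF-β1 gave 9, all higher (Ccne1, Chaf1b, Dut, Mcm5, Mcm6, Pcna, Pola1, Rrm2 and Uhrf1), 21.4% against 8.43%, with a median log2 fold change of 0.24 over the 42. The shares of all genes cover both directions. Of the 12601 genes then tested, 1919 were called higher and 1744 lower after TGF-β1 in NC cells, and 1575 and 1564 in siPdcd5 cells. Knockdown gave 448 higher and 698 lower without TGF-β1, and 344 and 718 with it. These fits rest on 2 libraries in each of NC + TGF-β1 and siPdcd5.

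A second list held 50 other genes of DNA replication, of which 49 were tested. After TGF-β1 in NC cells Rpa1, the large subunit of the single-strand binding protein, fell by 0.67 on the log2 scale (edgeR adjusted p = 0.0008), Topbp1 (named after its value was seen) was also called lower, and Ctps, the CTP synthase gene, and Pole4, a small subunit of polymerase ε, were called higher, 8.16% of the list against 15.3% of all genes. Ctps and Pole4 were also called higher after TGF-β1 in siPdcd5 cells, and 0 of the 49 were called lower there, so that 4.08% of the list was called against 16.1% of all genes. After knockdown without TGF-β1 0 of the 49 were called by edgeR, against 3.44% of all genes. Of the 49, 6 had an unadjusted p under 0.05, against 1949 of all 12425 genes. Without the 2 libraries that stood apart, 13 of the 49 were called after TGF-β1 in NC cells, 11 of them lower (26.5% against 29.1% of all genes). In siPdcd5 cells 7 were then called, 4 of them lower (14.3% against 24.9%), and after knockdown without TGF-β1 Rnaseh2a and Rnaseh2c, subunits of ribonuclease H2 named after their values were seen, were called higher (4.08% against 9.09%). The medians of this list with all libraries were -0.14, -0.06, 0.09 and 0.14 in the 4 comparisons in the order given above.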

How the data were processed

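RNA from 12 libraries of C22 cells was read with the QuantSeq 3′ mRNA-seq kit. The authors aligned the reads to mm10 with Bowtie2, counted unique and multiple alignments with Bedtools and deposited whole-number read counts per gene symbol. The quantile normalization in edgeR that they name next is not in the deposited counts. Whether counting used the strand is not stated, so levels of genes with near copies or with overlapping genes are uncertain. This touches 15 of the 42 members whose exons overlap another gene in the GENCODE annotation of GRCm38.

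Counts were analysed with R 4.3.3, edgeR 4.0.16, limma 3.58.1 and DESeq2 1.42.0. Libraries were grouped by their labels, low genes were removed by the default filter of edgeR, libraries were scaled by TMM, and 1 quasi-likelihood fit to the 4 groups gave each comparison as a contrast, with Benjamini-Hochberg adjustment over 12425 genes. CPM values use TMM-scaled library sizes, and a prior count of 2 was used for log2 CPM. The square root of the common dispersion was 0.132. Reads carry no molecular identifiers, so the floor of 3 counts covers counting error only.

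The members, the other gene lists, the tests and the alternatives were chosen with earlier results of these data known. All 42 members are named. Values in every library are given for Pcna, Mcm2, Mcm5, Mcm6, Cdc6, Cdt1, Cdc45, Rrm2, Tyms, Tk1, Uhrf1, E2f1, Ccne1 and Ccne2 and for members past the threshold, and the rule for other lists names Pdcd5, Postn, Myc, Cdkn2b, Cdkn1a, Ccnd1, Mki67 and Top2a and up to 3 called genes of lowest p in each list, not all of which are given. A result of another list is not reported here. Alternatives were DESeq2, quantile-normalized values in limma-trend, upper-quartile factors, other filters, only the 6 libraries compared, a replicate block and each library left out. The test was tested on simulated counts. Of 200 genes changed 1.5-fold and 2-fold between NC and NC + TGF-β1, 25% and 82.5% were found. No other simulated gene was changed, whereas 15.3% of all genes were called in the real comparison, so these rates need not hold there.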

Additional observations from a re-analysis of the deposited data

How the results depend on the processing

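Settings other than leaving out libraries kept the count after TGF-β1 in NC cells at 3 or 4 members. After TGF-β1 in siPdcd5 cells the count of 1 became 2 with upper-quartile factors (Cdt1 and Tk1), 2 with DESeq2 and 3 with only the 6 libraries compared (Cdt1, Tk1 and Mcm4). After knockdown without TGF-β1 the count of 1 became 2 with DESeq2. With TGF-β1 the count of 0 became 1 with upper-quartile factors, 1 without a filter on low counts and 3 with DESeq2. Over all genes, calls after TGF-β1 in siPdcd5 cells were 2011, 2369 and 2116 under the settings named, against 2002 in the main fit. After knockdown without TGF-β1 DESeq2 called 714 genes, against 427. With TGF-β1 the settings named called 177, 214 and 459 genes, against 192. Medians under these settings lay between -0.14 and -0.10, -0.09 and -0.05, 0.14 and 0.16, 0.14 and 0.19, and 0.01 and 0.07 in the 4 comparisons and the interaction. The replicate block gave 3, 1, 1 and 0 members, as without it. In the 4 comparisons, deviations of same-numbered libraries had mean correlations from -0.14 to 0.11 over all genes. The highest, for NC and NC + TGF-β1, stood against -0.06 for libraries of other numbers. The lowest, for NC + TGF-β1 and siPdcd5 + TGF-β1, stood against 0.07. The numbers were therefore not taken as pairs. Leaving out each library in turn gave 2 to 7, 0 to 5, 0 to 3, 0 to 1 and 0 to 0 members in the 4 comparisons and the interaction, and medians of -0.12 to -0.07, -0.07 to -0.03, 0.11 to 0.16, 0.13 to 0.24 and -0.01 to 0.06. The 7, 5 and 3 members and the median of 0.24 came without NC + TGF-β1 replicate 2. Calls over all genes then rose too, to 2554, 2761 and 667, against 1906, 2002 and 427 with all libraries. Without it and siPdcd5 replicate 1 together, a setting chosen after seeing the data, the counts were 10, 4, 6, 9 and 0, the median after knockdown with TGF-β1 was 0.24, that of the interaction was 0.089, and Mcm6 turned from 0.01 to -0.25 after TGF-β1 in NC cells. The cause was not tested. The 25% of 1.5-fold changes found in simulated counts is a rate over 200 genes, in counts where no other gene was changed. The rate for the members alone was not tested. Standard errors of the log2 fold changes of the members after TGF-β1 in NC cells ranged from 0.08 to 0.37.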

Other observations

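Other cell cycle genes, from lists chosen with earlier results known, showed changes where most replication genes did not pass the test. Of 22 mitosis genes, 11 were called lower and 0 higher after TGF-β1 in NC cells (50% against 15.3% of all genes). In siPdcd5 cells 7 were called lower and 0 higher (31.8% against 16.1%). The median log2 fold changes of the 22 genes were -0.40 and -0.42. Without the 2 libraries that stood apart, 17 and 12 were called lower, with medians of -0.56 and -0.36. These are 77.3% and 54.5% of the list, against 29.1% and 24.9% of all genes. Mki67, a marker of cycling cells, was at 43.1, 46.1 and 51.7 CPM in NC and 26.5, 26.8 and 34.7 in NC + TGF-β1, without overlap, at -0.68 (edgeR adjusted p = 0.0046). Top2a, a topoisomerase of S and G2 phase, was at 173, 182 and 189 CPM in NC and 144, 116 and 151 in NC + TGF-β1, at -0.40 (adjusted p = 0.021).

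Of 24 G1 regulators tested, 8 were called lower and 2 higher after TGF-β1 in NC cells (41.7% against 15.3% of all genes). The cyclin D1 gene Ccnd1 was at 1301, 1221 and 1237 CPM in NC and 497, 599 and 469 in NC + TGF-β1, a log2 fold change of -1.26, and E2f2, another E2F factor, was at 38.2, 36.05 and 35.5 and at 19.4, 16.4 and 17.5 CPM. Cdkn2b, the inhibitor p15 known to respond to TGF-β, rose from 27.1, 34.8 and 26.6 to 44.9, 70.3 and 48.6 CPM, by 0.89 (edgeR adjusted p = 0.0027). Cdkn1a and Myc were not called, at 0.14 and 0.18. Without the 2 libraries that stood apart, 12 of the 24 were called, 9 lower and 3 higher (50% against 29.1% of all genes). Cdkn1a was among the 12. In siPdcd5 cells the same comparison gave -1.19 for Ccnd1, -0.98 for E2f2 and 0.88 for Cdkn2b, all past the threshold.

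The alternating deviations of NC + TGF-β1 replicate 2 and siPdcd5 replicate 1 were also seen outside the members. Their correlation was 0.77 over the 22 mitosis genes, 0.78 over the 24 G1 regulators and 0.49 over the 49 other replication genes tested, with 0.49 over all genes. Over these lists 13 of 22, 12 of 24 and 29 of 49 genes lay above their group mean in both libraries. What sets these libraries apart was not tested.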
